A study of Mus musculus with 4 samples.

Results

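A set of 10 marker genes of hepatic stellate cells was followed in the livers of male and female CD-1 mice, an outbred stock: Lrat, Reln, Des, Pdgfrb, Ecm1, Dcn, Hgf, Ngfr, Acta2 and Rgs5. They were taken by symbol from a table of 21827 gene entries, collagen genes left out, and all 10 were found. Male and female mice were 8 weeks old and untreated. For each sex, 12 livers gave 2 pools, each of RNA from 6 livers, and the poly-A-enriched RNA of the 4 pools was sequenced. The adjusted p-values can reflect at most the spread between 2 pools per sex, and whether the pools entered the authors' test as replicates is not known here. The table holds 1 level per gene for male liver and 1 for female liver, so the spread between pools could not be computed here, and the ratios and adjusted p-values of genes are the authors' own. A ratio of male over female was computed by the authors for 13763 entries, the compared genes below, and all 10 markers were among them. The levels imply a depth of about 11240000 reads for male and 14720000 reads for female liver.

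Stellate cells lie between hepatocytes and the sinusoidal endothelium. In healthy liver they store vitamin A as retinyl esters in lipid droplets, keep a thin pericyte-like matrix and supply hepatocytes with growth factors. On injury they lose these droplets, divide in response to platelet-derived growth factor, and become contractile, matrix-producing myofibroblasts. They make up a small share of liver cells. In RNA of whole liver, fewer cells of a type and less RNA per cell cannot be told apart, and several of these genes are also expressed by portal fibroblasts, vascular smooth muscle or other cells.

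Of the markers that differed between the sexes, Lrat and Ecm1 were among the 8 whose promoters were searched. Pdgfrb and Dcn, which also differed, were not searched. The promoters were taken from the RefSeq promoter table (build GRCm38.p6, which is not the build of the expression table). The sequences of Lrat and Ecm1 are shown because both genes were higher in females. Each runs 5′ to 3′ from 250 bases before to 50 bases after the annotated start, on the minus strand of chromosome 3, at chr3:82903925-82904224 for Lrat and chr3:95739520-95739819 for Ecm1. Capitals mark GGGCGG or its reverse complement, and TATAAA.
Lrat: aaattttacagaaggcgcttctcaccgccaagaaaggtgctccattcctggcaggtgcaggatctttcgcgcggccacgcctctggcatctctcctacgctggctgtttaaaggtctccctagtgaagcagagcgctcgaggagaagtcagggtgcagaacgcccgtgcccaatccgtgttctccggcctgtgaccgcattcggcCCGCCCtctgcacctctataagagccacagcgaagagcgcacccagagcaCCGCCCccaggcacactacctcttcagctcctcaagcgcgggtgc
Ecm1: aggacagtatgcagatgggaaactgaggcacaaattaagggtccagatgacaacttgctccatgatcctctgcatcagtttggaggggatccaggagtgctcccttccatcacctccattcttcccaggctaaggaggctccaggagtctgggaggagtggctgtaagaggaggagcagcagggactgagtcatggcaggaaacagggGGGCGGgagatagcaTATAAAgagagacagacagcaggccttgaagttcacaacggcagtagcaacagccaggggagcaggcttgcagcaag
Both promoters hold GGGCGG on a strand, a motif found in 35.7% of the 32851 promoters of this length. TATAAA, found in 13.6% of them, begins 27 bases before the start of Ecm1 and is not in the Lrat window. The motif TTCNNNGAA, which STAT5 can bind and which occurs in 8.30% of promoters, and the CArG box of serum response factor, in 1.63%, were looked for on both strands in the 9 promoters of the 8 markers searched. No exact match to either lay in these windows. For the CArG box the search asked for A or T at every inner base and allowed no mismatch. Stretches 1 base off that form do lie in some windows, those of Acta2, Lrat and Ecm1 among them. Of the 8 genes, 5 held GGGCGG: Des, Lrat, Ecm1, Reln and Ngfr.

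Of the 10 markers, none was higher in males and 4 were higher in females at an adjusted p under 0.05 by the authors' deposited table. Among all compared genes, 7.21% were higher in males and 10.2% were higher in females by the same rule. The 4 were Lrat, Pdgfrb, Ecm1 and Dcn, genes of vitamin A storage, growth factor reception and the extracellular matrix. Their log2 ratios of male over female liver lay between -0.86 and -0.49 by the authors' deposited table. The other 6, Ngfr, Reln, Rgs5, Hgf, Acta2 and Des, were not called in either direction. The median log2 ratio of the 10 markers was -0.32, beside a median of -0.02 over all compared genes. Of the 10, 8 had a ratio below 0, Hgf among them at 0.00 when rounded, and Des and Acta2 had ratios above 0 without passing the test. Among all 13763 compared genes, 7266 had a ratio below 0. A log2 RPKM of 1 in males or females was reached by 8 markers, but by Pdgfrb and Ngfr in females alone, so a count over these 8 is no support for a direction. Of all compared genes that reached it, 9.19% were higher in females.

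Lrat encodes lecithin retinol acyltransferase, which esterifies retinol for storage in stellate cell droplets (chromosome 3, 82698931 to 82707895, mm9). Its level was a log2 RPKM of 3.085 in males and 3.796 in females, or 8.49 and 13.9 RPKM. It was 1.78-fold higher in females by the authors' deposited table (adjusted p = 8.34e-05). This was the smallest adjusted p among the 10 markers. The levels imply about 509 reads in males and 1093 in females, and counting alone allows a female over male ratio between 1.47 and 1.83 (exact 95% interval). A transcript on the opposite strand, 4930564K09Rik, overlaps Lrat, at a log2 RPKM of -2.87 in males and -2.58 in females. Reads of the strands cannot be told apart unless counting used strand, on which the sources used here say nothing.

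Pdgfrb, the receptor of platelet-derived growth factor B and D chains (chromosome 18, 61204804 to 61244715), was among the less abundant markers. Its log2 RPKM was 0.597 in males and 1.439 in females, or 1.51 and 2.71 RPKM. The gene was 1.81-fold higher in females by the authors' deposited table (adjusted p = 0.00144). It had the ratio farthest from 1 among the 10. With about 91 implied reads in males and 215 in females, counting alone allows a female over male ratio of 1.41 to 2.33, wider than for Lrat.

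Ecm1 encodes a secreted glycoprotein that, in mouse liver, keeps transforming growth factor beta in its latent form (chromosome 3, 95538071 to 95543492). Its log2 RPKM was 4.512 in males and 5.048 in females, or 22.8 and 33.1 RPKM. In the authors' deposited table Ecm1 was 1.54-fold higher in females (adjusted p = 0.00238), and counting of about 485 reads in males and 921 in females allows 1.30 to 1.62. Dcn, decorin, is a small proteoglycan that binds collagen fibrils and transforming growth factor beta (chromosome 10, 96942245 to 96980783). It was the most abundant of the markers in both sexes, at a log2 RPKM of 6.179 in males and 6.594 in females, or 72.5 and 96.6 RPKM. Its difference was the smallest of the 4, 1.41-fold in favour of females by the authors' deposited table, with an adjusted p of 0.0102. Dcn therefore lay just outside the authors' own class of female-biased genes, which needs an adjusted p under 0.01, and the other 3 genes lay inside it. At that threshold 4.16% of compared genes were male-biased and 6.05% female-biased. The interval from counting was 1.25 to 1.42 for Dcn.

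**Figure D1:**
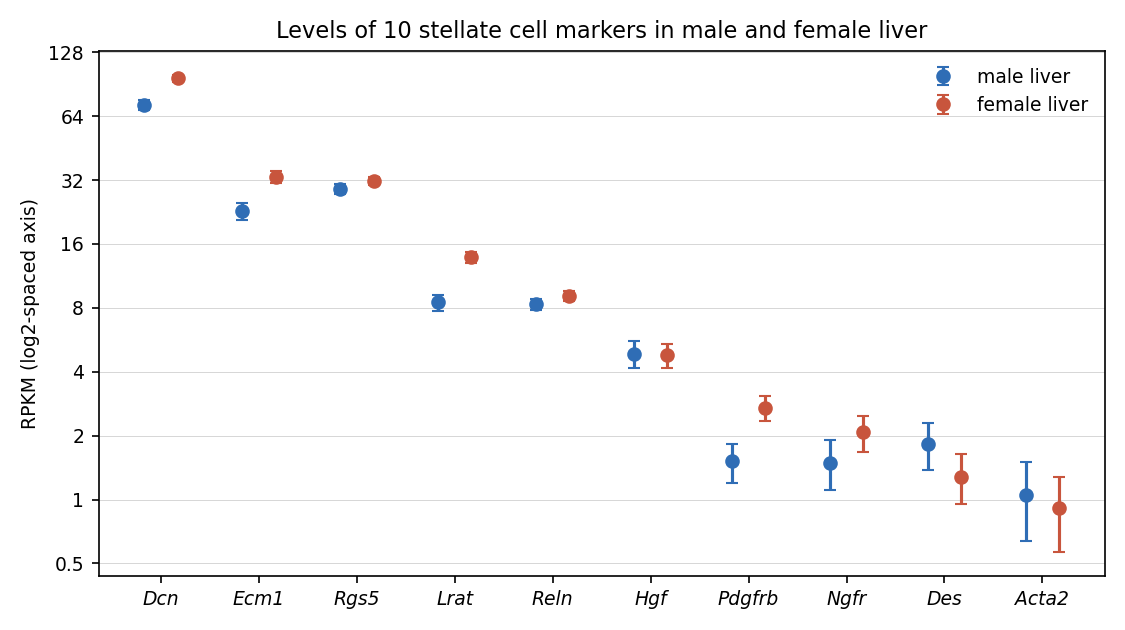
Level of each marker in RPKM on a log2-spaced axis, in males (left, blue) and females (right, red), with bars for the exact 95% Poisson interval of the implied reads, which covers counting error alone. Lrat, Ecm1, Dcn and Pdgfrb stand higher in females without overlap of the bars, while the points of Hgf lie at 4.87 RPKM in males and 4.78 RPKM in females.

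Ngfr, the p75 neurotrophin receptor found on stellate cells (chromosome 11, 95430140 to 95449012), had a log2 RPKM of 0.575 in males and 1.053 in females. Its ratio pointed to females, 1.47-fold by the authors' deposited table, but did not pass the test (adjusted p = 0.0675). About 57 reads in males and 104 in females allow a female over male ratio from 0.999 to 1.96 by counting alone. At this depth a difference of the size seen for Dcn would fall inside that interval.

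Reln and Rgs5 were well covered and differed little. Reln encodes reelin, a large secreted glycoprotein that acts through lipoprotein receptors (chromosome 5, 21390272 to 21850523). Its level was 8.33 RPKM in males and 9.11 RPKM in females, with a log2 ratio of -0.15 by the authors' deposited table (adjusted p = 0.442). Rgs5, which speeds up the switching-off of G proteins and marks pericytes (chromosome 1, 171585632 to 171625944), stood at 28.9 RPKM in males and 31.6 RPKM in females. Its log2 ratio was -0.13 by the authors' deposited table (adjusted p = 0.498). Counting alone places the female over male ratio between 1.01 and 1.18 for Reln and between 1.02 and 1.17 for Rgs5. An equal level lies just outside these intervals, which leave out the spread between pools. Read by counting alone, 6 of the 10 markers would be female-higher, but the same reading would take in 41.6% of compared genes, 21.7% on the male and 20% on the female side. With reads divided by 2, to allow for a wrong length, the intervals of both genes include 1.

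Hgf, the hepatocyte growth factor that acts on hepatocytes through the receptor MET (chromosome 5, 16059368 to 16125257), had the ratio closest to 1. Its log2 RPKM was 2.285 in males and 2.257 in females, and the log2 ratio by the authors' deposited table was 0.00 when rounded (adjusted p = 1). Counting of 189 reads in males and 243 in females allows a female over male ratio of 0.809 to 1.19, so ratios of the size seen for Lrat, Pdgfrb, Ecm1 and Dcn lie outside what counting allows for Hgf.

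The filament and contractile markers Des and Acta2 had low levels and ratios above 0 that did not pass the test. Des encodes desmin, the intermediate filament protein of muscle that also marks rodent stellate cells (chromosome 1, 75356904 to 75365154). It had 1.82 RPKM in males and 1.28 RPKM in females, with a log2 ratio of 0.45 by the authors' deposited table (adjusted p = 0.265). Acta2, the smooth muscle actin that rises when stellate cells become myofibroblasts (chromosome 19, 34315581 to 34329826), had 1.05 RPKM in males and 0.915 RPKM in females. Its log2 ratio was 0.17 by the authors' deposited table (adjusted p = 0.773). About 23 reads in males and 26 in females allow a female over male ratio between 0.474 and 1.58 by counting alone for Acta2, a range that holds the ratios of Dcn and Ecm1.

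**Figure D2:**
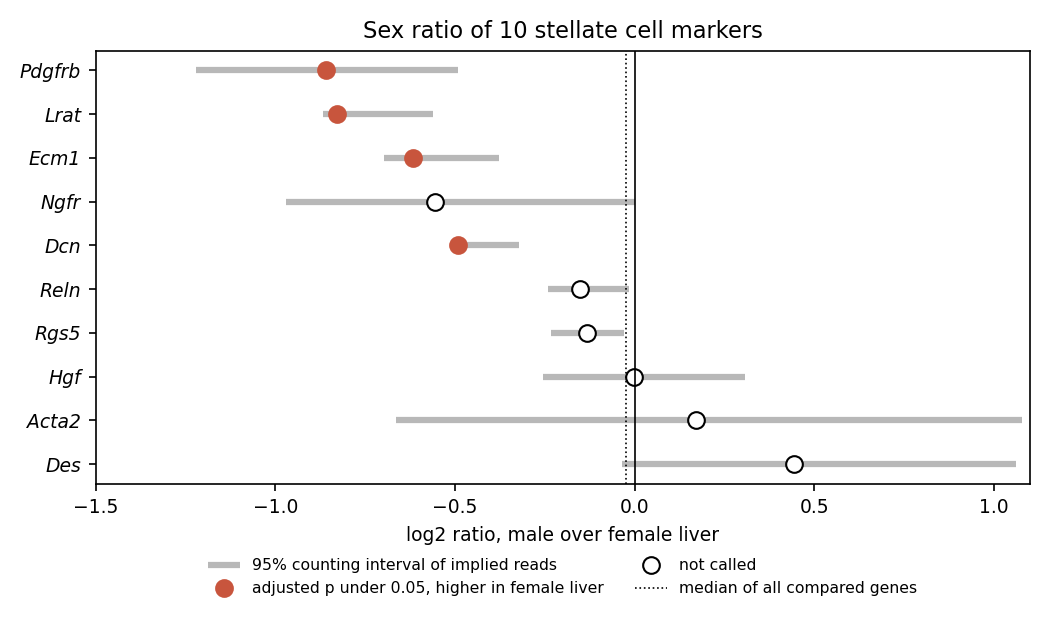
Log2 ratio of male over female liver for each marker by the authors' deposited table (points, filled where the adjusted p is under 0.05) with the 95% counting interval of implied reads (grey bars). The 4 filled points lie between -0.86 and -0.49, and the dotted line marks the median of all compared genes at -0.02. Bars and points are scaled differently, so a point need not sit in the middle of its bar.

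The markers spanned a wide range of levels per length. In males the order from the top was Dcn, Rgs5, Ecm1, Lrat, Reln, Hgf, Des, Pdgfrb, Ngfr and Acta2. The counting intervals of neighbours overlapped for Lrat and Reln, Des and Pdgfrb, Pdgfrb and Ngfr, and Ngfr and Acta2. In females the order was Dcn, Ecm1, Rgs5, Lrat, Reln, Hgf, Pdgfrb, Ngfr, Des and Acta2. There, overlap was found for Ecm1 and Rgs5, Pdgfrb and Ngfr, and Des and Acta2. Lrat and Reln, which overlapped in males, did not overlap in females, where they stood at 13.9 RPKM and 9.11 RPKM. Dcn made up 47.7% of the summed RPKM of the 10 markers in males and 49.3% in females. The sum was 152 RPKM in males and 196 RPKM in females, and 79.3 and 99.5 RPKM without Dcn. Among compared genes Dcn stood above 94.1% of levels in males and 95.6% in females, while Acta2 stood above 23.7% in males and 20.9% in females.

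**Figure D3:**
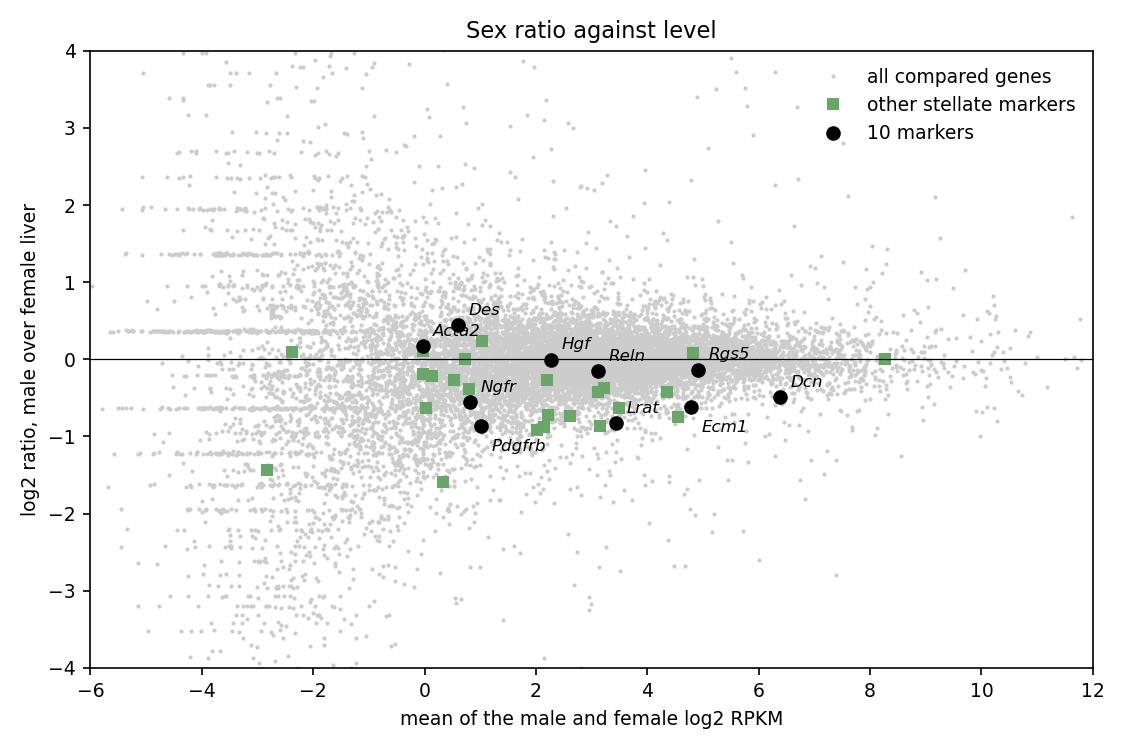
Log2 ratio of male over female liver against the mean of the male and female log2 RPKM, for compared genes (grey; 105 lie outside the axes), the other stellate markers (green squares) and the 10 markers (black, named). Of these 34 stellate genes, 27 lie below 0. Among all 13763 compared genes, 7266 had a ratio below 0. The spread of all genes widens towards low levels.

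Other markers of stellate cells included more female-higher genes. Of 24 further genes described in mouse stellate cells, all compared, none was higher in males and 11 were higher in females, and their median log2 ratio was -0.40. Among the called genes with the ratios farthest from 1 by the authors' deposited table were Bmp10, a ligand for endothelial receptors (3.01-fold higher in females, adjusted p = 0.00737), Pth1r, a parathyroid hormone receptor (1.89-fold, adjusted p = 0.00122), and Angptl6 (1.83-fold, adjusted p = 0.00362). Also called were Colec11, Bmp5, Sod3, Prelp, Nes, Vipr1 and Colec10, named after their values were seen. Among the 13 not called were the transcription factor genes Hand2 and Lhx2, and Pdgfra, Vim and Cygb. Summed RPKM of the 24 genes was 431 in males and 482 in females. Tmem56, at a log2 RPKM of 8.24 in males and 8.28 in females, supplied most of both sums, which were 127.7 in males and 170.5 in females without it. With the 10 markers, 0 of 34 stellate genes were higher in males and 15 in females, and 27 of the 34 had a ratio below 0. Over all 13763 compared genes, 7.21% were higher in males and 10.2% in females, and 7266 had a ratio below 0.

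Vitamin A handling held 1 male-higher gene and 6 female-higher genes. Of 25 retinoid genes in the table, 17 were compared, and the median log2 ratio was -0.20. The called genes were 5.88% and 35.3% of the 17, beside 7.21% and 10.2% of all compared genes. At an adjusted p under 0.01, 0 were higher in males and 5 in females, beside 4.16% and 6.05% of all compared genes. Besides Lrat, the retinoic acid receptor gene Rarb (1.63-fold, adjusted p = 0.00378) and the lipase gene Pnpla3 (1.84-fold, adjusted p = 0.000159) were higher in females by the authors' deposited table. Rdh5 and Cyp26b1 were also female-higher. Aldh1a1, an enzyme that makes retinoic acid, was 1.31-fold higher in males by the authors' deposited table (adjusted p = 0.0358). Stra6, Crabp1, Crabp2, Rbp2, Rbp3, Rdh12 and Rpe65 were at the scale's floor, with no read, in males and females.

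The ligands and receptors around Pdgfrb were mostly not called. Of 7 genes of the family, Pdgfrb and its ligand gene Pdgfd were higher in females, Pdgfd by 1.67-fold by the authors' deposited table (adjusted p = 0.0401). None was higher in males, and the median log2 ratio was 0.10. Pdgfb, which encodes the other ligand chain of the receptor, had a log2 RPKM of -0.72 in males and -1.62 in females and was not called. Of 22 compared genes of transforming growth factor beta activation and signalling, Ecm1 and Smad7, an inhibitor of the pathway (1.58-fold, adjusted p = 0.00729 by the authors' deposited table), were higher in females and none was higher in males (median -0.08). The female-higher genes were 28.6% of the 7 genes of the Pdgfrb family and 9.09% of these 22. Over all compared genes, 7.21% were higher in males and 10.2% in females. The ligand gene Tgfb1 and its receptor genes were not called.

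The lists for the pathways of Hgf, Reln, Ngfr and Rgs5 hold 7 to 15 compared genes each, and differences between them were not tested. Calls were made for 17.4% of all compared genes, 7.21% on the male and 10.2% on the female side. Among 15 compared genes of the Hgf and Met axis, none was called in either direction by the authors' deposited table, and the median log2 ratio was 0.00 when rounded. The most abundant of them were Plg, plasminogen, at a log2 RPKM of 10.13 in males and 10.17 in females, and Hpn, a protease that can activate Hgf, at 7.12 in males and 7.09 in females. Of 11 genes of the reelin pathway, the adaptor gene Dab1 was 4.55-fold higher in males (adjusted p = 8.21e-06) and the reelin receptor gene Vldlr 2.99-fold higher in females (adjusted p = 1.33e-09) by the authors' deposited table. The other reelin receptor gene, Lrp8, was near the floor and was not called. The called genes are 9.09% of the reelin list on each side. Neurotrophin genes went both ways, with 2 of 13 (15.4%) higher in males and 3 (23.1%) in females. Sorl1 (2.05-fold, adjusted p = 0.00671) and Sort1 were higher in males by the authors' deposited table. Ntrk2, a receptor gene, was higher in females, with 5 implied reads in males and 26 in females. Ntf3 had 1 implied read in males and 22 in females, and counting alone allows a male over female ratio of 0.00144 to 0.368. Sorcs3 rested on 2 implied reads in males and 10 in females, and its counting interval, 0.0279 to 1.23, includes 1. Of 7 compared genes of the regulator family of Rgs5, Rgs16 was 7.41-fold higher in males (adjusted p = 8.2e-11) and Rgs1 2.11-fold higher in females (adjusted p = 0.0473) by the authors' deposited table.

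Small leucine-rich proteoglycans, the family of Dcn, had called members on both sides. Of 11 compared genes, 2 were higher in males and 5 in females, with a median log2 ratio of -0.49. At an adjusted p under 0.01, 3 were higher in females. Lum (1.75-fold, adjusted p = 0.00067) and Fmod (2.62-fold, adjusted p = 0.0143) were higher in females by the authors' deposited table, as were Bgn, Prelp and Dcn. Omd was higher in males, with 44 implied reads in males and 4 in females and a counting interval of the male over female ratio from 5.24 to 55.2. Tsku was 1.98-fold higher in males by the authors' deposited table (adjusted p = 3.67e-06). Of 18 contractile and intermediate filament genes, none was higher in males and 2 (11.1%) were higher in females. Over all compared genes, 7.21% were higher in males and 10.2% in females. The 2 genes were Nes, nestin (1.55-fold, adjusted p = 0.0305), and Tpm1 (1.34-fold, adjusted p = 0.0375) by the authors' deposited table, while Myh11, Tagln, Cnn1, Vim, Des and Acta2 were not called. Neither Nes nor Tpm1 passed at 0.01.

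**Figure D4:**
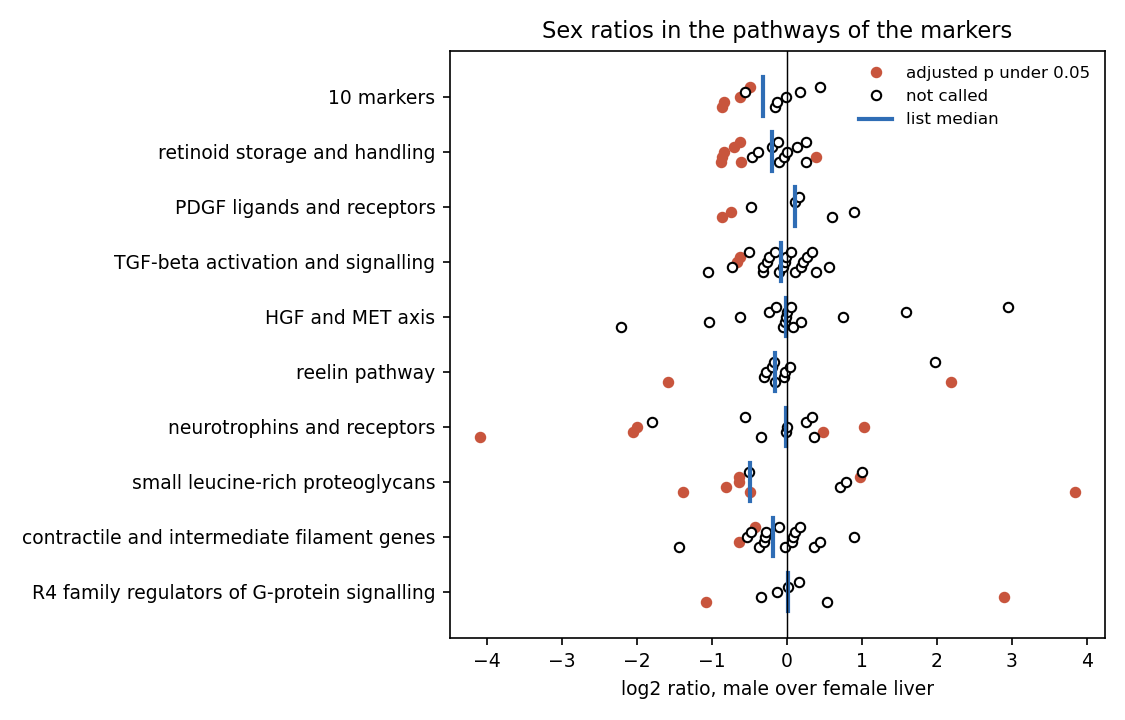
Log2 ratio of male over female liver by the authors' deposited table for the 10 markers and for genes of their pathways; filled red points have an adjusted p under 0.05 in either direction, and blue lines are list medians. Lists share the marker they were built around, so the rows are not independent. Called genes of the markers and of the retinoid list lie mostly below 0, and no gene of the Hgf and Met axis is filled.

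Genes that rise when stellate cells become activated included more female-higher than male-higher genes, while 8 were not called. Of 16 compared genes, 1 (6.25%) was higher in males and 7 (43.8%) were higher in females, and the median log2 ratio was -0.67. The shares over all compared genes were 7.21% and 10.2%. At an adjusted p under 0.01 the female-higher count was 3, beside 6.05% of all compared genes. Among the 7 genes that reached a log2 RPKM of 1 the count was 4, beside 9.19% of all genes that reached it. Postn (2.22-fold, adjusted p = 4.94e-06), Thbs2 (1.93-fold, adjusted p = 0.0092) and Crip1 (3.36-fold, adjusted p = 0.00665), with S100a6, were female-higher and had, among called genes, the ratios farthest from 1 by the authors' deposited table. Crip1 rested on 9 implied reads in males and 40 in females, and Thbs2 on 26 in males and 63 in females. S100a6 had 5 implied reads in males and 18 in females and an adjusted p of 0.0498 by the authors' deposited table, and its counting interval of the male over female ratio, 0.106 to 1.02, includes 1. Spp1, osteopontin, which bile duct cells also express, was 1.73-fold higher in males by the authors' deposited table (adjusted p = 9.76e-05). Acta2, the usual marker of this state, was not called, as described above. The activation marker Timp1 had reads in males alone and no ratio.

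Markers of other liver cells were called in different shares, and differences between the lists were not tested. Of all compared genes, 7.21% were higher in males and 10.2% in females. Of 13 Kupffer cell genes, 1 (7.69%) was higher in males and 8 (61.5%) were higher in females (median log2 ratio -0.45). The summed level of the 13 genes was 242 RPKM in males and 312 RPKM in females. Marco, a scavenger receptor gene, was 3.21-fold (adjusted p = 1.11e-07), C1qc 1.63-fold and C1qb 1.48-fold higher in females, and Cd163 1.77-fold higher in males, by the authors' deposited table. The female-higher count of this list was 3 where an adjusted p under 0.01 was asked for, beside 6.05% of all compared genes. None of the 13 was at the floor. Sinusoidal endothelial genes had 1 of 15 (6.67%) called, Pecam1, which was 1.49-fold higher in females by the authors' deposited table (adjusted p = 0.00934). The median of the 15 genes was -0.22, and their sum was 228 RPKM in males and 254 RPKM in females. The most abundant of them, Clec4g and Fcgr2b, were not called. Hepatocyte genes had 3 of 11 (27.3%) higher in males and 2 (18.2%) in females (median -0.10). Tdo2 and Apoa1 were 1.62-fold and 1.49-fold higher in males, and Alb and Hpd 1.62-fold and 1.53-fold higher in females, by the authors' deposited table, with Apob the third male-higher gene. The part of Kupffer cell content in the stellate result was not tested.

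Lists for the mesenchymal cells closest to stellate cells were weakly covered. Beside the counts in this paragraph stand 7.21% of all compared genes higher in males and 10.2% higher in females. Of 9 compared portal fibroblast genes, 1 (11.1%) was higher in males and 3 (33.3%) were higher in females (median -0.71). Their sums were 15.5 RPKM in males and 23.9 RPKM in females, and 3.54 and 4.98 RPKM without Gas6. Eln, elastin (4.63-fold, adjusted p = 8.02e-05), Fbln2 and Gas6 were female-higher and Thy1 was male-higher by the authors' deposited table. Implied reads in males and females were 14 and 84 for Eln, 14 and 45 for Fbln2, and 15 and 4 for Thy1. Of the 9 genes, Gas6 alone reached a log2 RPKM of 1 in either sex. Mfap5 was at the floor in both sexes, and Gli1 and Pi16 had reads in a single sex. Among 10 compared genes of vascular smooth muscle and pericytes, none was higher in males and Ntn4 (10%) was higher in females. Ntn4 was 1.44-fold higher in females by the authors' deposited table (adjusted p = 0.0339). Tagln, the highest after Ntn4, had a log2 RPKM of 1.57 in males and 1.85 in females. The sums of this list were 12.2 RPKM in males and 16.8 RPKM in females, and Cspg4, Pln, Cox4i2 and Higd1b were at the floor in both sexes. Mesothelial genes summed to 2.43 RPKM in males and 2.89 RPKM in females, or 2.08 and 1.89 RPKM without Upk3b. Of 7 compared, Upk3b and Wt1 (28.6%) were higher in females. Wt1 had 2 implied reads in males and 17 in females. Bile duct genes had 1 of 10 (10%) higher in males, Spp1, and 2 (20%) in females, Sox9 and Aqp1. The sums of the 10 genes were 88.7 RPKM in males and 86.7 RPKM in females. Aqp1 and Spp1 supplied most of these sums, at 34.3 and 43.9 RPKM in males and 46.5 and 27.9 RPKM in females. Lymphocyte genes summed to 6.42 RPKM in males and 7.32 RPKM in females, or 6.31 and 5.65 RPKM without Nkg7. Of 13, Cd4 was higher in males and Nkg7 in females, 7.69% each way. Nkg7 had no implied read in males and 21 in females, 5.26-fold above males if 3 reads over all male pools are taken as the floor. Counting alone allows a male over female ratio of up to 0.251 for Nkg7. The part of these cells in the levels of Des, Acta2, Rgs5 and Dcn was not tested.

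**Figure D5:**
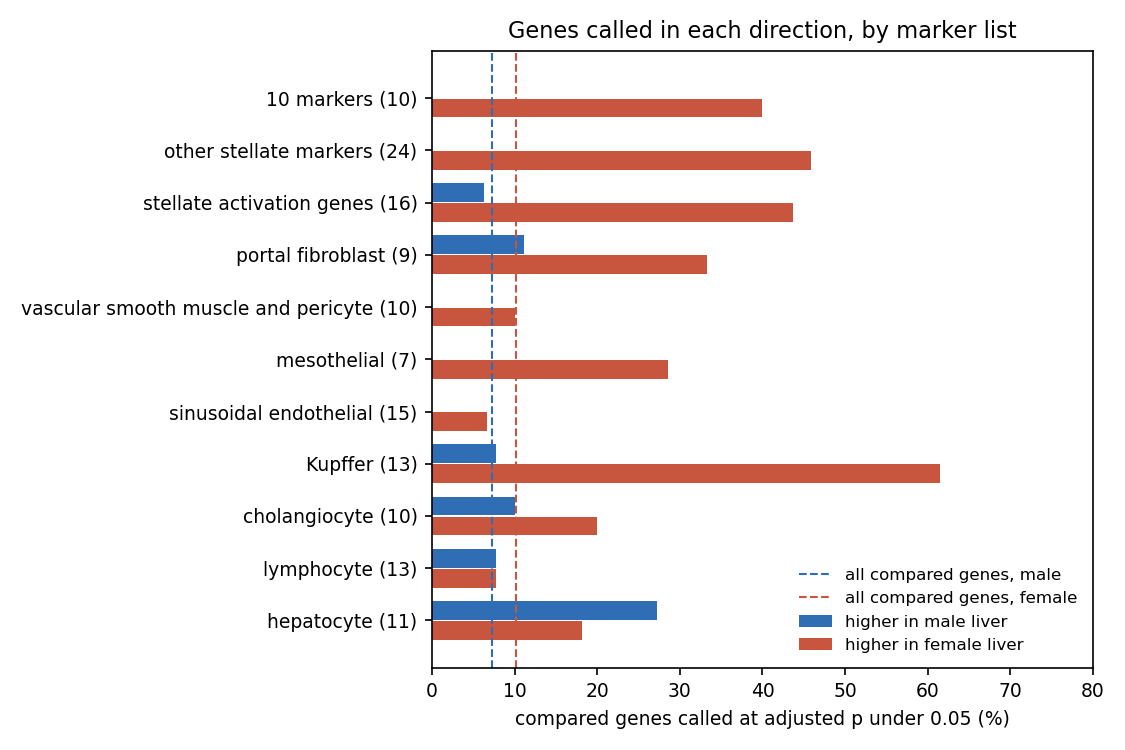
Share of compared genes called at an adjusted p under 0.05 in each marker list, higher in males (blue) above higher in females (red), with the number of compared genes in brackets. Dashed lines mark the shares over all compared genes, 7.21% for males and 10.2% for females; the 10 markers stand at 0% and 40.0%, and Kupffer cell genes at 7.69% and 61.5%, a female-higher count of 8 that is 3 at an adjusted p under 0.01.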

How the data were processed

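Per the labels' protocols, poly-A-enriched RNA was prepared with a strand-specific method; the submitters' processing notes name Bowtie, edgeR and mm9, without roles. Per the file headers, the authors deposited log2 RPKM per sex, a normalized log2 ratio of male over female, its linear ratio, a signed fold change (a score, negative where female is higher) and an adjusted p-value. How p was adjusted, and how reads were assigned to genes, the sources used here do not say. With no value per pool, the planned count test could not be run, no unadjusted p-value was used, and genes were called at the authors' adjusted p under 0.05. Adjustment over a list alone was not possible.

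Genes with a ratio of 1 and levels 0.389 apart (log2) are at the floor (6590). Those named in the lists carry an adjusted p of 0.026 without a read in either sex, so genes at the floor were kept out of all calls. A further 14 have no level, and 1460 have reads in a single sex and a ratio set to 1 (within 0.3% of a whole multiple of the floor). The floor was taken as 1 added read, and 1050 olfactory receptor genes at the floor gave the depth. Reads use GENCODE vM21 transcript lengths, by accession, or by symbol for Lrat, Des, Pdgfrb, Dcn and Rgs5. Of floor genes, 74.2% matched by accession and 43.8% by symbol had an implied length within 2% of that used, so reads are approximate. Intervals (Clopper-Pearson for ratios, Poisson for levels) and floors cover counting error alone and use implied depth, not the authors' normalization. Functions were tested on simulated data.

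The 10 markers and the 19 lists were chosen with earlier results of these data known. Text names all markers, and per list up to 4 called genes by ratio or, where fewer than 2 were called, up to 2 uncalled genes of highest level; others are named after their values were seen. A called gene that the rule would name is not reported here. Coordinates of genes are mm9, with the table's starts, read as counted from 0, raised by 1. Python 3.11.15, pandas 2.3.3 and SciPy 1.17.1 were used.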

Additional observations from a re-analysis of the deposited data

How the results depend on the processing

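The count of markers higher in females was 4, and it was 3 at an adjusted p under 0.01 (without Dcn), 4 over the 8 markers with a log2 RPKM of at least 1 (a filter that Pdgfrb passes in females alone), 4 by the direction of the unnormalized difference, and 6 by the counting interval of implied reads, which added Reln and Rgs5. By that last rule 21.7% of compared genes were higher in males and 20% in females. None of the 10 was higher in males under any of these. The interval of Rgs5 rests on a length taken by symbol, and with reads divided by 2 it spans 0.825 to 1.01 as male over female and includes 1. The median log2 ratio of the markers was -0.32, and -0.27 by the unnormalized difference, -0.30 centred on all compared genes and -0.27 as log2(RPKM + 0.1) without the added read. Of 30 ratios of single markers under these 3 changes, 27 kept their direction. Hgf turned to the male side in all 3, at 0.028 by the unnormalized difference, 0.021 centred and 0.0258 with the other added value; it was called in none. Of 235 distinct compared genes in the companion lists, which include the markers, 14 were higher in males and 57 in females. With the markers left out these were 14 and 53 of 225, beside 7.21% and 10.2% of all compared genes. With genes of a log2 RPKM of at least 1 alone, 9 of 132 were higher in males, beside 8% of all such genes. At an adjusted p under 0.01, 35 of 235 were higher in females, beside 6.05% of all compared genes. Fewer genes can pass under either rule. Of 114 counts of single lists under 3 alternatives, 91 stayed within 1.5 times. No pool could be left out, because the table gives no value per pool. No paired analysis was possible because the columns carry no replicate. Depth limits Acta2, Des and Ngfr most, with 23 to 104 implied reads per sex.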

Other observations

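Values of genes next to the markers in the mm9 table were looked at after the markers. Of 20 flanking genes, 16 were compared, and 2 were higher in males and 4 in females at an adjusted p under 0.05 by the authors' deposited table. By the same rule, 7.21% of all compared genes were higher in males and 10.2% in females. Stambpl1, which lies 763 bp from Acta2 on the opposite strand and encodes a deubiquitinase, had a log2 RPKM of -0.89 in males and 1.26 in females (log2 ratio -2.23, adjusted p = 1.08e-05 by the authors' deposited table), while Acta2 was not called. Fas, on the other side of Acta2, had a log2 ratio of -0.61 (adjusted p = 0.00338 by the authors' deposited table). Tars2, 405 bp from Ecm1 on the same strand, was higher in males by the authors' deposited table (log2 ratio 0.51, adjusted p = 0.0227), in the opposite direction to Ecm1. Lum, the nearest gene to the right of Dcn at 47352 bp, is of the same family and was higher in females, as was Dcn. The antisense entries overlapping Reln and Des, Gm10475 and Gm15179, were at the floor in both sexes.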
